A study of Mus musculus with 12 samples.

Results

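The genes described here are the 75 genes that encode the proteins of the mouse cytosolic ribosome, out of 56691 gene IDs in the count tables. They were chosen by name. A gene was taken when its GRCm38 symbol was Rpl or Rps followed by a number, with at most a closing a, x or y, or was Rplp0, Rplp1, Rplp2 or Rpsa, and when the annotation called it protein-coding. The rule matched 76 genes. Rpl13a was then left out because of its measured rise with the inhibitor, and its values are given at the end of the account as a description. Of the 75 genes, 45 encode proteins of the large subunit and 30 proteins of the small subunit. The rule does not take core proteins of other names, such as Rps3a1 and Fau, nor paralogs such as Rpl39l.

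RNA was measured in 12 libraries of R1 cells, a male mouse embryonic stem cell line of 129/Sv background grown on gelatin, in 4 groups of 3. Primed cells (day 0, treatment none) were grown in serum with LIF. The other groups were the same line after 6 days of 2i alone, of 2i with 25 µM MRE11i, or of 2i with 50 µM MRE11i. The 2i medium usually combines inhibitors of MEK and GSK3 and holds stem cells in a naive state. MRE11i is an inhibitor of MRE11, a nuclease that works with RAD50 and NBN at DNA breaks and at stalled replication forks, and the sources used here do not name the compound. No group stayed in serum and LIF to day 6, so 2i and time in culture cannot be told apart. All groups are 1 cell line, and no control received the inhibitor without 2i. The labels number the replicates 1 to 3 but do not say that they were separate cultures. P-values therefore rest on the spread among these libraries, and that spread may be technical.

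Ribosomal proteins coat and shape the ribosomal RNA of both subunits, and cells make them in nearly equal numbers, with surplus protein degraded. Most of their mRNAs begin with a short run of pyrimidines, the 5′ terminal oligopyrimidine or TOP motif, through which mTORC1 and the RNA-binding protein LARP1 set their translation and stability together. Growing stem cells devote a large part of their mRNA to these genes, and their promoters are known for binding by GABP, YY1, SP1 and MYC family factors.

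The start regions of the genes were searched for pyrimidine runs near the start, which need not be TOP motifs. RefSeq promoter windows on GRCm38.p6, 250 bases before to 50 bases after each annotated start, were found for 55 of the genes (65 windows, since some genes have more than 1 start). A run of at least 8 pyrimidines within 50 bases on either side of the start, on the strand of the gene, was present in 81.5% of these windows and in 35.7% of all 32851 windows. The sequences below show such runs in genes named in the later results, and 1 gene with no run of that length. Their order is not a ranking, and run length was not set against any change in level. Each is 30 bases long, and capitals mark the pyrimidine run, or the part of it within 50 bases of the start.
Rpl15, chr14:18270968-18270997, minus strand: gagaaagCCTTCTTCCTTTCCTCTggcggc
Rpl27a, chr7:109519186-109519215, plus strand: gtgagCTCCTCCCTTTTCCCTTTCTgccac
Rplp2, chr7:141447636-141447665, plus strand: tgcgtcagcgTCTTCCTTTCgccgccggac
Rps27, chr3:90213632-90213661, minus strand: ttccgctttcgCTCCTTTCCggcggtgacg
Rps26, chr10:128626485-128626514, minus strand: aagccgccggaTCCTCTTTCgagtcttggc
Rps12, chr10:23787182-23787211, minus strand: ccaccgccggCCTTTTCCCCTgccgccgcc
Rpl26, chr11:68901508-68901537, plus strand: tcccaaccTCCTCTCCCCTTTCgctccgag
Rpl27, chr11:101442193-101442222, plus strand: gtcatcctcgCTCCTCCCTCCacacgccgg
Rplp0, chr5:115559452-115559481, plus strand: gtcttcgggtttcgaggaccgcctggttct

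In Rpl15 and Rpl27a the runs of 17 and 20 pyrimidines began 4 bases before the annotated start. In Rplp2 and Rps27 they began 5 and 2 bases before it, and in Rps26 and Rps12 they began 3 and 8 bases after it. In Rpl27 the run lay farther upstream, beginning 42 bases before the start. In Rpl26 the marked part begins 50 bases before the start, at the edge of the stretch searched, and the pyrimidines continue upstream of it. The window of Rplp0 is shown at its start, with no run of 8. Annotated starts can lie some bases from the start a cell uses, so a run is described here as a sequence only. Over the whole 300-base window and on both strands, the ETS-type sequence CCGGAAG was in 36.9% of the windows of these genes and 8.86% of all windows. The YY1-type sequence AAGATGGC was in 9.23% against 2.75%, the SP1-type sequence GGGCGG in 60% against 35.7%, and the E-box CACGTG, which reads the same on both strands, in 10.8% against 7.15%. TATAAA was the only one of these sequences that was less frequent, at 9.23% against 13.6%. No 2 of these motif sequences contain one another.

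The 12 libraries held 5894561 to 7060126 counts each, and 13230 genes passed the low-count filter and were tested. Of the 75 genes, 74 passed, and Rpl24 did not. Stem cell markers summed to 4539 to 6050 CPM (counts scaled to library size) in every library, with Nanog, Sox2, Zfp42 and Esrrb at high levels, whereas Pou5f1 had 4.53 to 10.9 CPM. A list of 12 fibroblast and feeder markers summed to 799 to 1174 CPM. The sum was 799 to 1092 CPM in primed libraries, 1068 to 1151 in 2i, 1062 to 1174 at 25 µM and 975.5 to 1154 at 50 µM. Its defining collagens were low (Col1a1 averaged 25.5 CPM in primed cells and 0.76 at 50 µM). Col3a1, Lum, Dcn and Postn were at or near 0, so other members made up most of the sum. Of the 8 members tested, 1 rose in 2i (Fn1, by 1.01 to 1.07 without any single library) and 4 fell. These are 12.5% and 50%, where 20% of all genes rose and 20.4% fell. At 25 µM against 2i, 0 of the 8 were called higher and 1 lower (12.5%, where 0.484% of all genes were). At 50 µM against 2i, 0 were called higher and 3 lower (37.5%, where 8.07% of all genes were), with 2 to 3 lower without any single library. The part of these markers in the results was not tested. In bulk RNA, fewer cells of a type and less RNA per cell cannot be told apart.

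Ribosomal protein genes were heavily counted in these cells. Together the 75 genes took 12.4%, 13.6% and 13.2% of all counts in the primed libraries, 11.6%, 12.4% and 12.1% in 2i, 12.4%, 13.3% and 13.7% at 25 µM, and 13.1%, 12.9% and 14.5% at 50 µM, in the order of replicates 1 to 3. The primed mean was 13.0% ± 0.621 (SD, n = 3) and the 2i mean 12.045% ± 0.454. The 25 µM mean was 13.2% ± 0.655, and the 50 µM mean 13.5% ± 0.849. The 2i mean was the lowest, but its highest library overlapped the lowest library of the primed group (12.361%) and of the 25 µM group. The highest share was that of replicate 3 at 50 µM. Large-subunit genes made up 6.32% to 8.12% of counts over the 12 libraries, and small-subunit genes 5.24% to 6.38%.

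**Figure D1:**
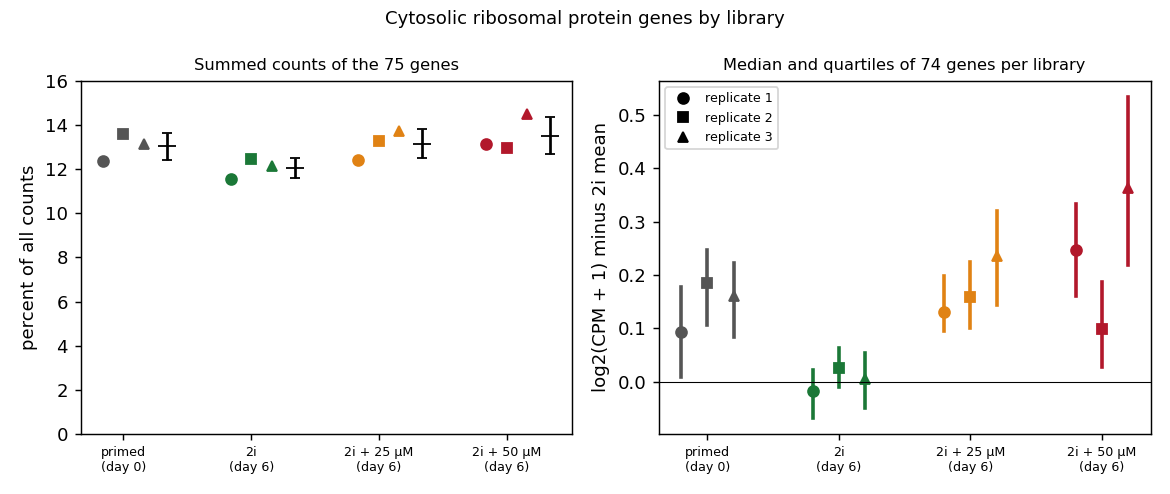
Left, summed counts of the 75 ribosomal protein genes as a percent of all counts in each library, with mean and SD of 3 libraries per group; right, the median (symbol) and quartiles (line) over 74 genes of log2(CPM + 1) minus the mean of the 2i libraries. The 3 libraries in 2i alone lie near 0 in the right plot, all 9 others lie above them, and the 50 µM libraries are the most spread, from 0.10 to 0.36.

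Counts came from the 3′ ends of transcripts and were not adjusted for length, so the order of CPM between genes is not an order of transcript number. Of the 75 genes, 57 averaged 1000 CPM or more, 15 lay between 50 and 1000 CPM, and 3 lay below 50. The median was 1558 CPM. The most counted was Rps26, a small-subunit protein at the mRNA exit channel and a gene of Diamond-Blackfan anaemia, with 5009 CPM (28624 to 36848 counts per library). It was followed by Rps12 (4538 CPM), a protein of the small-subunit head, Rpl4 (4366 CPM), which lines the peptide exit tunnel, Rpl37 (3872 CPM), Rps20 (3793 CPM) and Rpl23 (3711 CPM).

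The lowest were Rpl24 (0.66 CPM, 51 counts in all 12 libraries), Rpl29 (24.8 CPM) and Rps10 (35.7 CPM), although all 3 encode core ribosomal proteins. Rpl10a (180 CPM), Rps2 (383 CPM) and Rps6 (384 CPM), the classical substrate of S6 kinase, came next. The core gene Rps3a1, outside the rule, had 5712 counts over all libraries, and its pseudogene Rps3a3 had 39661. Reads of near-identical copies may therefore be split or lost in these tables, and the sources used here do not say how the authors' counting treated such reads. Pseudogenes with the symbol of 1 of the 75 genes followed by -ps, here called named pseudogenes, were annotated for 58 of them. Pseudogenes of other names, such as Rps3a3, were not counted. The named pseudogenes held 0.082% to 0.094% of the counts of each library. The largest of them was Rps13-ps1, with 35290 counts beside 83718 of Rps13, so the level of Rps13 is uncertain. The 75 genes are short, with a median coding length of 456 bases against 1386 over the 11900 protein-coding genes tested. They lie on 19 chromosomes, 13 of them on chromosome 7, 7 on chromosome 11 and 4 on the X chromosome (Rpl10, Rpl36a, Rpl39 and Rps4x).

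The first comparison set 6 days of 2i against the primed cells. Ribosomal protein genes were slightly lower in 2i as a group, and in the fit below few of them passed the test alone. In edgeR's quasi-likelihood test, with an adjusted p below 0.05 over all 13230 genes, 10 of the 74 genes fell, 1 rose and 63 were not called. Of all genes tested, 20.4% fell and 20% rose. The called shares of 13.5% and 1.35% of the ribosomal protein genes were both below the background in this fit, which does not pair libraries by replicate number. Fitted changes were negative for 66 of 74 genes. Their median was −0.15 on the log2 scale, a change in level of −9.74%, with quartiles of −0.20 and −0.09 and a range of −0.32 to 0.25. The median of all genes tested was −0.01, with quartiles of −0.33 and 0.34. The ribosomal protein genes thus differed by little and mostly in 1 direction, whereas the quartiles of all genes were wider and lay on both sides of 0.

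Library by library, every one of the 3 primed libraries had a higher median than every 2i library. Relative to the 2i mean, the medians of log2(CPM + 1) were 0.09, 0.19 and 0.16 in primed replicates 1 to 3 and −0.02, 0.03 and 0.01 in 2i. For 32 genes all primed libraries lay above all 2i libraries, and for 1 gene all lay below. These are 43.2% and 1.35% of the 74 genes, where 25.8% and 24.6% of all genes separated in those directions. Same-numbered libraries of the groups deviated together. An edgeR fit blocked by that number called 30 genes lower (40.5%, against 24% of all genes) and 1 higher (1.35%, against 23.5%). The share called lower was thus below that of all genes without the block and above it with the block. Without the block the count of falls was 2 without 2i replicate 3, 3 without primed replicate 2, 4 without 2i replicate 1, 5 without 2i replicate 2 and 5 with library totals in place of TMM scaling.

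Among large-subunit genes 7 fell and none rose, with a median log2 change of −0.15. The largest fall was that of Rplp0, the base of the P-stalk that recruits elongation factors (ENSMUSG00000067274, chromosome 5, 115559467 to 115563727). It had 1204, 1238 and 1090 CPM in primed replicates 1 to 3 and 961, 978 and 881 CPM in 2i. All primed values lay above all 2i values, and the log2 change was −0.32 ± 0.08 (SE), with an edgeR adjusted p of 0.00345. Its stalk partners did not pass the test. Rplp1 had a log2 difference of 0.02 ± 0.12 and Rplp2 of −0.06 ± 0.10, and for both the primed and 2i libraries overlapped.

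Rpl27, a large-subunit protein particular to eukaryotes (ENSMUSG00000063316, chromosome 11, 101442298 to 101445529), had 2068, 2153 and 1914 CPM in the primed libraries and 1652, 1735 and 1522 CPM in 2i. Its groups did not overlap either, and it fell by 0.32 ± 0.09 (edgeR adjusted p = 0.00469). Rpl27 and Rplp0 kept an adjusted p below 0.05 under every alternative that was run, including the leaving out of each library. Rpl26, which lies beside the exit tunnel and is also known for binding p53 mRNA (ENSMUSG00000060938, chromosome 11, 68901583 to 68906989), went from 2668, 2726 and 2592 CPM to 2194, 2307 and 2132 CPM. It fell by 0.27 ± 0.08 (edgeR adjusted p = 0.00975). With 2i replicate 3 left out that p was 0.0576.

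Rpl22, a protein that is not needed for basic translation and has a paralog, Rpl22l1 (ENSMUSG00000028936, chromosome 4, 152325742 to 152334071), had 1818, 1890 and 1753 CPM in primed cells and 1504, 1523 and 1507 CPM in 2i. The 2i libraries were closely grouped below all primed libraries, and the log2 change was −0.27 ± 0.09 (edgeR adjusted p = 0.017). That p lay between 0.0551 and 0.0769 without primed replicate 2 or any single 2i replicate. Rpl8, a protein near the peptidyl transferase centre, changed by −0.26 ± 0.10 (edgeR adjusted p = 0.0383). Its p was between 0.0836 and 0.218 without primed replicate 1 or 2 or 2i replicate 2 or 3. Rpl4 changed by −0.24 ± 0.08 (edgeR adjusted p = 0.0204) and had p-values of 0.0909 to 0.0944 without primed replicate 2 or 2i replicate 1 or 3, 0.052 without the low-count filter and 0.0529 with library totals in place of TMM. Rpl12, which holds the stalk base with Rplp0, was the seventh, at −0.24 ± 0.10. Its edgeR adjusted p of 0.0465 was 0.0511 to 0.183 in the fits that left out primed replicate 2 or 3, 50 µM replicate 1 or any single 2i or 25 µM library. It was 0.0588 with TMM factors from the other genes and 0.101 with library totals.

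Small-subunit genes had a median log2 change of −0.14, and 3 fell and 1 rose. Rps27a, made as a fusion to ubiquitin and so a source of ubiquitin as well (ENSMUSG00000020460, chromosome 11, 29545846 to 29548109), had 2838, 3244 and 3206 CPM in primed cells and 2343, 2747 and 2601 CPM in 2i. It fell by 0.27 ± 0.10 (edgeR adjusted p = 0.0372), with all 2i libraries below the primed ones. The adjusted p was 0.0547 to 0.192 without primed replicate 2 or 3, 2i replicate 1 or 3 or 50 µM replicate 1, and 0.0831 with library totals. Rps7 and Rps14 changed by −0.24 ± 0.09 and −0.24 ± 0.10. Their edgeR adjusted p-values were 0.0325 and 0.0487. For Rps7 the p was 0.0649 to 0.119 without primed replicate 1 or 2 or any single 2i library, 0.0593 without the low-count filter and 0.0611 with library totals. For Rps14 it was 0.057 to 0.233 without any single library other than primed replicate 3 and 50 µM replicate 2, 0.0622 with TMM factors from the other genes, 0.0518 in a fit of only the primed and 2i libraries and 0.0792 with library totals.

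Rps29, a small zinc-binding protein of the subunit head and a Diamond-Blackfan gene (ENSMUSG00000034892, chromosome 12, 69157722 to 69159186), was the one gene that rose. It had 2497, 2485 and 2303 CPM in the primed libraries and 2895, 2872 and 2901 CPM in 2i. The groups did not overlap, and the rise was 0.25 ± 0.09 on the log2 scale (edgeR adjusted p = 0.0261). The p was between 0.0521 and 0.122 without primed replicate 2 or 3 or any single 2i replicate. The next most positive value was that of Rpl30, at 0.07 ± 0.11, which was not called. With the replicate block, the edgeR adjusted p of the called genes described above lay between 4.78e-05 (Rpl27) and 0.0105 (Rps14).

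Of the genes known for roles beyond the ribosome or for human disease, some were called, such as Rpl26, Rps27a and Rps29 above. The 6 that follow were not. Rpl5 and Rpl11, which carry 5S RNA into the ribosome and bind MDM2 when free, had log2 differences of −0.14 ± 0.09 and −0.24 ± 0.11, and for both all 2i libraries lay below all primed ones (for Rpl11, 635, 702 and 753 CPM against 560, 591 and 618 CPM). Rpl38, which is linked to translation of Hox mRNAs in mouse embryos, had a value of −0.24 ± 0.11 and Rps19, the most often mutated gene of Diamond-Blackfan anaemia, of −0.08 ± 0.08. Rps6 had −0.08 ± 0.13, and Rpsa, also known as a laminin receptor, had −0.17 ± 0.09. None of these 6 passed the edgeR threshold, and with the replicate block Rpl11 (adjusted p = 0.00762), Rpl38 (0.00339) and Rpsa (0.0338) did.

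**Figure D2:**
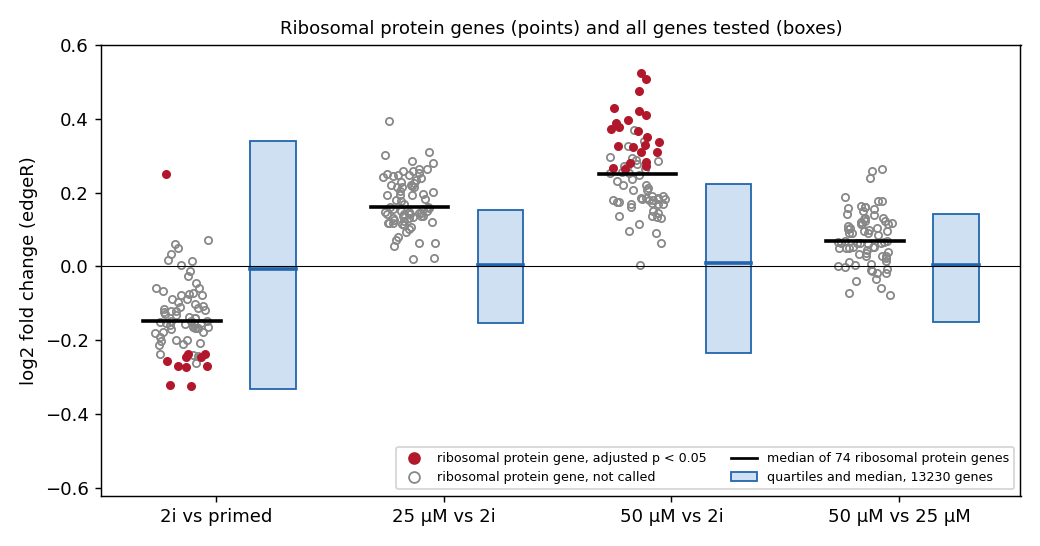
Fitted log2 fold change of each of the 74 ribosomal protein genes tested (points, horizontal jitter only) in 4 comparisons, with their median (black line) beside the quartiles and median of all 13230 genes (box). In 2i against primed 66 of 74 points lie below 0, and in both doses against 2i all 74 lie above 0; the 2i libraries are shared by these 3 comparisons.

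The next comparisons set each dose of the MRE11 inhibitor in 2i against 2i alone. These contrasts were used in choosing the genes, since Rpl13a was left out for its rise in them, and they share the 2i libraries with the comparison above. Their values, and the counts of calls in the next paragraphs, describe the fit and are not read as a test of these genes. At 25 µM the fitted change was positive for all 74 genes, with a median of 0.16 (a level 11.7% higher), quartiles of 0.13 and 0.22 and a range of 0.02 to 0.39. The median of all genes was 0.00. At 50 µM it was again positive for all 74, with a median of 0.25 (18.9% higher), quartiles of 0.18 and 0.32 and a range of 0.00 to 0.52, where the median of all genes was 0.01. The medians per library, relative to the 2i mean, were 0.13, 0.16 and 0.24 in replicates 1 to 3 at 25 µM and 0.25, 0.10 and 0.36 at 50 µM.

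At 25 µM edgeR called 0 of the 74 genes (0.454% of all genes were called higher and 0.484% lower), with 1 called higher by DESeq2 and 0 by limma voom. With the replicate block 15 were called higher (2.48% of all genes were). All 25 µM libraries lay above all 2i libraries for 44 genes, and 10.2% of all genes separated that way. At 50 µM edgeR called 23 genes higher and 0 lower (7.01% of all genes were called higher and 8.07% lower). With the block 52 were called higher (12.1% of all genes were). For 42 genes all 50 µM libraries lay above all 2i libraries, and 16.1% of all genes separated that way. Of the 23, 12 were large-subunit and 11 small-subunit genes.

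The 50 µM libraries were spread in these genes, and replicate 3 had the highest median. Without replicate 3 the count at 50 µM was 6 and the median 0.14. Without replicate 2, the lowest of that group, the count was 36, and without 50 µM replicate 1 or 2i replicates 1, 2 or 3 in turn it was 10, 12, 12 and 10. With library totals in place of TMM scaling it was 14. The 50 µM libraries were also the most variable, with a median coefficient of variation over the 74 genes of 11.6%, against 6.29% in primed cells, 4.96% in 2i and 6.05% at 25 µM. Transcripts of the mitochondrial genome took 5.42% to 6.82% of counts at 50 µM and 4.69% to 5.38% in 2i. Genes with at least 1 count numbered 18498 to 19051 at 50 µM and 19321 to 19824 in 2i. The part of either in the ribosomal protein values was not tested.

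The P-stalk genes were among those with the largest differences at 50 µM. Rplp1, an acidic stalk protein (ENSMUSG00000007892, chromosome 9, 61913284 to 61914542), had 2451, 2510 and 2672 CPM in 2i, 2895, 3147 and 3251 CPM at 25 µM and 3548, 2862 and 4560 CPM at 50 µM. Every treated library lay above every 2i library, and the log2 differences from 2i were 0.28 ± 0.12 and 0.52 ± 0.12. Its partner Rplp2 had 2513, 2626 and 2624 CPM in 2i, 2986, 3035 and 3404 CPM at 25 µM and 3458, 2926 and 3926 CPM at 50 µM. Its 50 µM group spanned its 25 µM group. Rplp0, which had fallen in 2i, had 1110, 1104 and 1141 CPM at 25 µM and 1283, 1172 and 1143 CPM at 50 µM. The treated libraries were thus above the 2i libraries and within or near the primed range of 1090 to 1238 CPM.

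Rpl15, an abundant core protein and a Diamond-Blackfan gene (ENSMUSG00000012405, chromosome 14, 18267823 to 18271391), had 326, 357 and 387 CPM in primed cells and 341, 355 and 377 CPM in 2i, and these groups overlapped. It had 435, 500 and 472 CPM at 25 µM and 484, 450 and 589 CPM at 50 µM, all above both untreated groups. The log2 differences from 2i were 0.39 ± 0.10 and 0.51 ± 0.10. Rpl27a (ENSMUSG00000046364, chromosome 7, 109519147 to 109522367) had 590, 578 and 534 CPM in primed cells, 518, 585 and 585 CPM in 2i, 674, 676 and 610 CPM at 25 µM and 811, 747 and 786 CPM at 50 µM. Here the 50 µM libraries lay above all others, and the differences from 2i were 0.21 ± 0.08 and 0.47 ± 0.08. Both genes carry the long pyrimidine runs printed above. Runs are also printed for Rps12 and Rpl27, which differed little from 2i at either dose. Rplp0, which was above 2i at both doses, is printed without a run. A link between these runs and the differences was not tested.

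Rpl10, an X-linked protein that joins the large subunit last and is needed for it to become active, had 462, 488 and 504 CPM in 2i, 564, 599 and 627 CPM at 25 µM and 594, 561 and 758 CPM at 50 µM. Its log2 differences were 0.30 ± 0.11 and 0.40 ± 0.11. Rpl39, the small X-linked protein of the exit tunnel, differed by 0.25 ± 0.10 and 0.37 ± 0.10. For Rpl10 and Rpl39 all libraries of both doses lay above the 2i libraries.

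On the small subunit, the highest differences at 50 µM were those of Rps27, Rps2 and Rps4x. Rps27, a zinc-finger protein known also as metallopanstimulin (ENSMUSG00000090733, chromosome 3, 90212522 to 90213651), had 1255, 1288 and 1244 CPM in 2i, 1415, 1452 and 1606 CPM at 25 µM and 1712, 1300 and 2082 CPM at 50 µM. Replicate 2 at 50 µM was below all 25 µM libraries, and replicates 1 and 3 were above them. Its log2 differences from 2i were 0.24 ± 0.12 and 0.43 ± 0.12. Rps2, which lines the mRNA entry channel (ENSMUSG00000044533, chromosome 17, 24718116 to 24721929), had 337, 329 and 324 CPM in 2i, 380, 391 and 413 CPM at 25 µM and 439, 371 and 514 CPM at 50 µM, differences of 0.26 ± 0.10 and 0.42 ± 0.10.

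Rps4x, encoded on the X chromosome, differed by 0.26 ± 0.09 and 0.39 ± 0.09, Rpsa by 0.25 ± 0.09 and 0.38 ± 0.09, and Rps19 by 0.22 ± 0.08 and 0.37 ± 0.08. Rps19 was closely grouped, with 1341, 1435 and 1413 CPM in 2i, 1574, 1636 and 1652 CPM at 25 µM and 1806, 1833 and 1785 CPM at 50 µM. Its 3 groups did not overlap.

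Other genes differed little between the inhibitor groups and 2i. Rps12 had 4202, 4481 and 4447 CPM in 2i, 4278, 4338 and 4714 CPM at 25 µM and 4556, 4501 and 4101 CPM at 50 µM, with log2 differences of 0.02 ± 0.08 and 0.00 ± 0.08. All 3 of these groups overlapped, and the 3 primed libraries (4724 to 5126 CPM) lay above all of them. Rpl27, which had fallen in 2i, differed by 0.06 ± 0.09 at both doses. All 6 of its treated libraries (1638 to 1825 CPM) lay below its 3 primed libraries. Rpl30, Rps25, Rpl19 and Rpl12 also differed by no more than 0.13 at 50 µM.

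**Figure D3:**
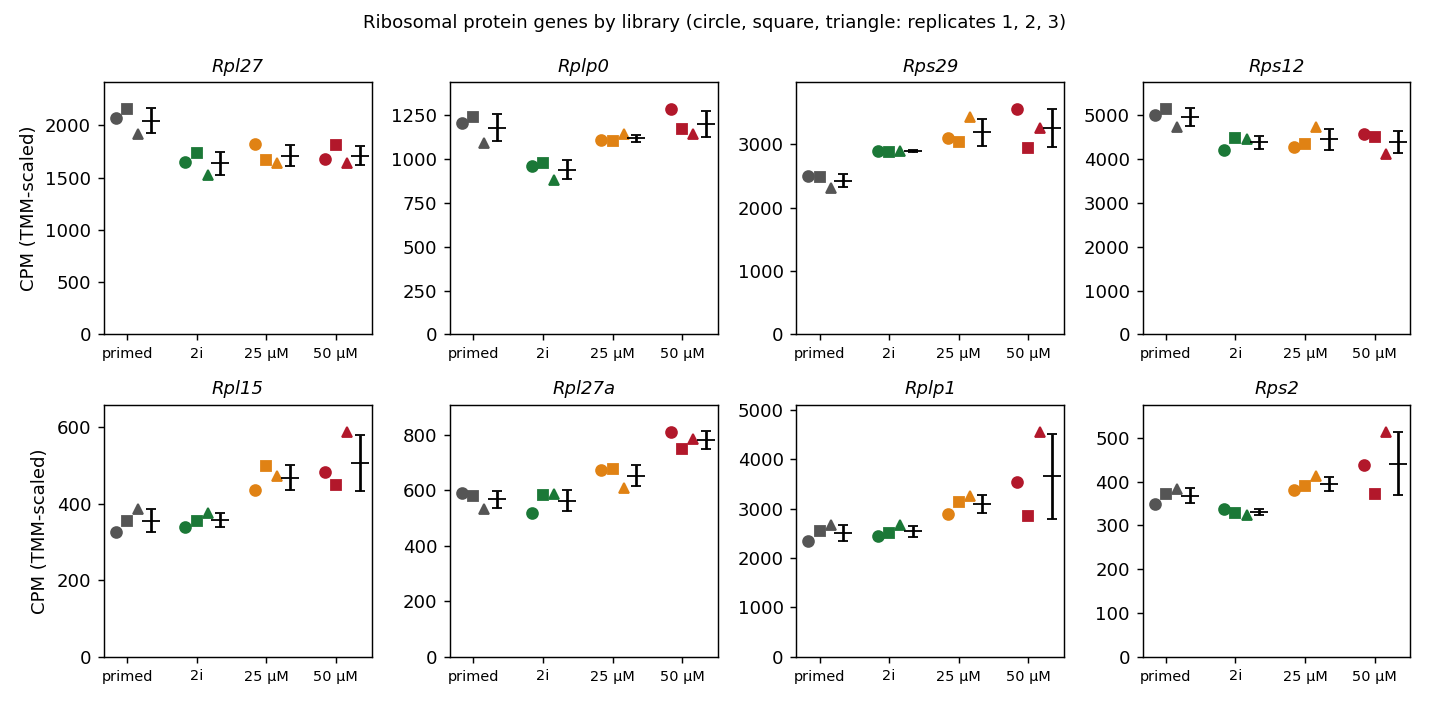
TMM-scaled CPM of 8 ribosomal protein genes in each of the 12 libraries, with mean and SD of 3 libraries per group (axes start at 0). Rpl27 and Rps12 are highest in primed cells, Rplp0 is lowest in 2i alone, Rps29 is lowest in primed cells, and Rpl15, Rpl27a, Rplp1 and Rps2 are highest at 50 µM.

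The 2i mean was the lowest of the 4 group means for 66 of the 75 genes, the 50 µM mean was the highest for 50 and the primed mean for 18. The 50 µM mean lay above the primed mean for 56 genes and the 25 µM mean for 44. The comparisons of 2i with primed cells and with each dose share the 2i libraries, so low values in those 3 libraries enter them with opposite sign.

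**Figure D4:**
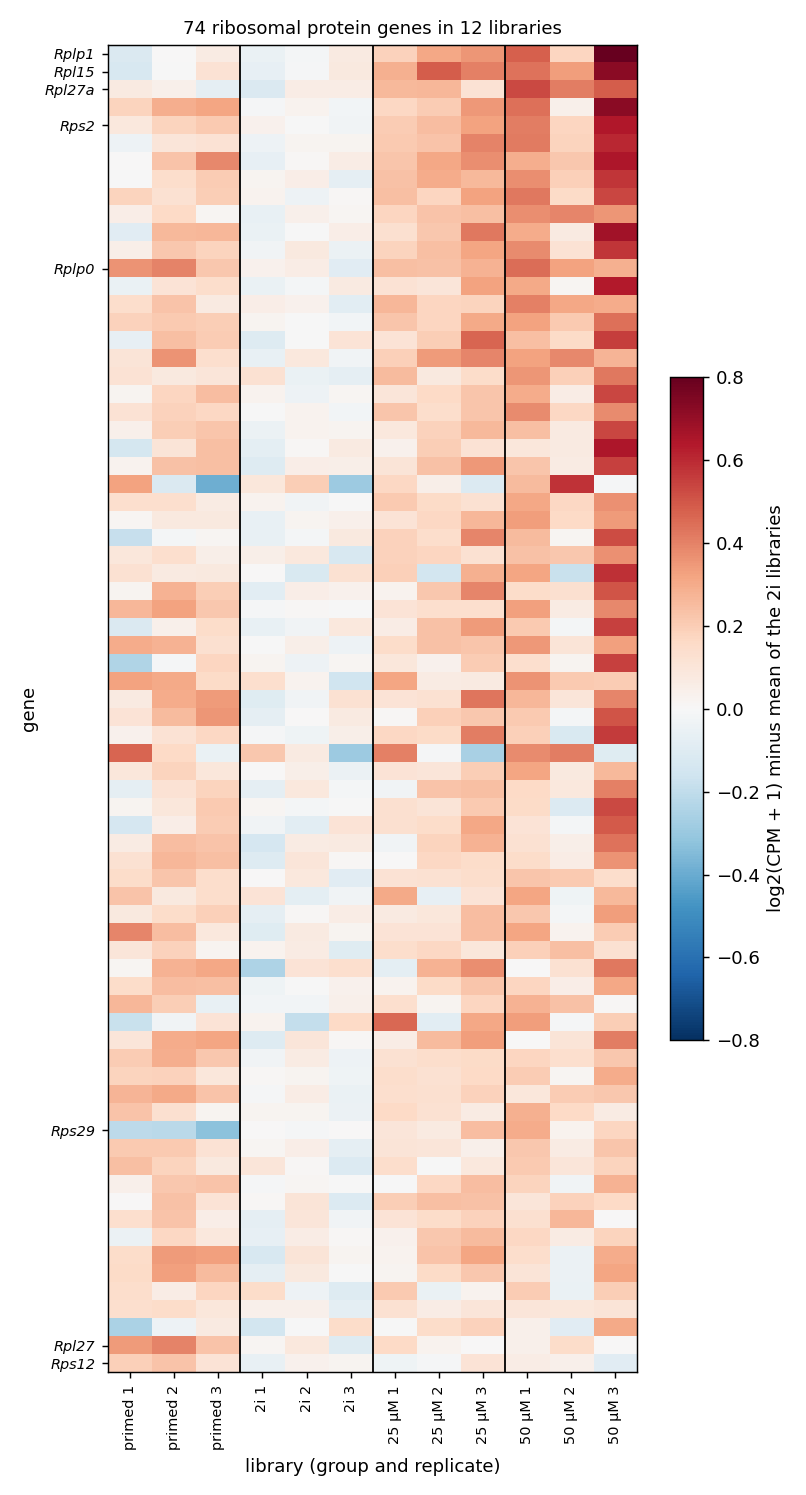
Heat map of log2(CPM + 1) minus the mean of the 2i libraries for 74 ribosomal protein genes (rows, ordered by the fitted change at 50 µM against 2i, with 8 of them labelled) in 12 libraries (columns); red is higher and blue lower than 2i. Replicate 3 at 50 µM is the reddest column, replicate 2 of that group is pale, and Rps29 is the row that is blue in all 3 primed libraries.

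The doses themselves were set against each other without the 2i libraries. Fitted changes from 25 to 50 µM were positive for 63 of 74 genes and negative for 11, with a median of 0.07 and a range of −0.08 (Rps28) to 0.26 (Rps10), where the median of all genes was 0.01. edgeR called 0 of the 74 genes (0.181% of all genes were called higher and 0.975% lower), with 0 called by DESeq2 and by limma voom. With the replicate block Rpl27a alone was called higher, against 1.27% of all genes. All 50 µM libraries lay above all 25 µM libraries for 6 genes, among them Rpl27a, Rplp0 and Rps19, and below them for Rps28, against 7.48% and 9.21% of all genes. The median was 0.15 without 50 µM replicate 2 and 0.001 without 50 µM replicate 3. Across the 74 genes the change from 25 to 50 µM had a Pearson correlation of 0.15 (Spearman 0.17) with the change from primed to 2i, 2 comparisons that share no library. These genes are not independent and share their libraries' depth and scaling.

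Across the 74 genes, the correlation of the log2 change with log2 coding length was −0.25 in 2i against primed and 0.02 at 50 µM against 2i (Pearson, with the same limits).

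Rpl13a, the gene left out, had larger differences in the inhibitor groups than any of the 74 genes tested. It encodes a large-subunit protein that also silences some inflammatory mRNAs, and its introns hold small nucleolar RNAs. It had 497, 482 and 424 CPM in primed cells, 357, 382 and 369 CPM in 2i, 698, 748 and 706 CPM at 25 µM and 1003, 877 and 1052 CPM at 50 µM. The 4 groups did not overlap. The log2 differences from 2i were 0.96 ± 0.09 and 1.40 ± 0.09, beside highest values of 0.39 (Rpl15) and 0.52 (Rplp1) among the 74. In 2i against primed it changed by −0.34 ± 0.09, slightly below the lowest of the 74.

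Some paralogs of ribosomal proteins had large changes in 2i. Of 15 paralogs, core proteins and pseudogenes (such as Rps4l) outside the rule, 2 rose and 2 fell in 2i, Rpl13a among the latter. These are 13.3% each, where 20% of all genes rose and 20.4% fell. With the replicate block 4 fell, Fau (edgeR adjusted p = 0.0445) and Rack1 (0.00349) in addition. Rpl39l, a paralog of Rpl39 best known from male germ cells, had 48.5, 55.3 and 59.7 CPM in primed cells and 238, 302 and 267 CPM in 2i. All 2i libraries were far above the primed ones, a rise of 2.30 ± 0.12 (edgeR adjusted p = 2.08e-12), and means at 25 and 50 µM were 272 ± 31.7 and 261 ± 31.5 CPM (SD, n = 3). Its parent Rpl39 had a value of −0.15 ± 0.10 in 2i and was not called.

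Rpl10l, an intronless paralog of Rpl10 with a role in spermatogenesis, rose by 1.68 ± 0.12 (edgeR adjusted p = 8.18e-10), from 89.2 ± 6.19 CPM in primed cells to 287 ± 36.8 CPM in 2i. Its mean was 231 ± 23.0 CPM at 25 µM and 182 ± 32.9 CPM at 50 µM, and the difference of 50 µM from 2i was −0.65 ± 0.12 (edgeR adjusted p = 0.000867). Rpl22l1 fell with its partner Rpl22, from 785 ± 88.0 to 525 ± 76.6 CPM (−0.58 ± 0.11, edgeR adjusted p = 0.000178). Rps27l, Rpl7l1, Rpl36al, Rps3a1 and Fau were not called in 2i without the block.

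Lists of genes that act around the ribosomal proteins were read from the same fit. Of 40 cytosolic translation factors, 21 fell and 1 rose in 2i (15 to 21 falls without any single library), with a median of −0.22. These are 52.5% and 2.5% of the list, where 20.4% of all genes fell and 20% rose. Among them, Eif1ax, which guides scanning to the start codon, fell by 0.63 ± 0.08 and Eif5a, which relieves stalling at prolines, by 0.60 ± 0.09. Eif3l, a subunit of the eIF3 scaffold, fell by 0.45 ± 0.08. Eif2s2, the beta subunit of the factor that delivers initiator tRNA, was the one that rose, by 0.79 ± 0.09. At 50 µM against 2i, 6 of the 40 were called higher (15%, where 7.01% of all genes were) and 0 lower, and 2 to 8 were called higher without any single library. With the replicate block 12 were called higher and 4 lower, where 12.1% and 12.4% of all genes were. Among the 6 was Eif1, a factor of start codon choice (0.36 ± 0.08), which was also called without any single library and was picked out after its value was seen.

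Of 33 chaperones, import receptors and assembly factors of ribosomal proteins, 13 fell and 1 rose in 2i (10 to 14 falls without any single library), with a median of −0.18. These are 39.4% and 3.03% of the list, where 20.4% of all genes fell and 20% rose. Nob1, the nuclease that finishes 18S RNA, fell by 0.61 ± 0.11, Eif6, which keeps free large subunits apart from small ones, by 0.49 ± 0.09, and Mrto4, a placeholder for the stalk, by 0.47 ± 0.09. The import receptor Tnpo1 rose by 0.53 ± 0.09. At 50 µM 1 of the 33, Ipo9, was called higher (3.03%) and 0 lower, where 7.01% of all genes were called higher and 8.07% lower. With the block 2 were called higher and 1 lower, where 12.1% and 12.4% of all genes were.

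Of 22 regulators of mTORC1 and TOP mRNAs tested, 3 rose and 5 fell in 2i (2 to 3 and 3 to 5 without any single library), with a median of −0.01. These shares of 13.6% and 22.7% lie near the 20% and 20.4% of all genes, and are no result about the list. Mlst8, a subunit of both mTOR complexes, rose by 0.81 ± 0.15, and Eef2k, which switches off elongation factor 2, rose by 0.84 ± 0.21. Maf1, a repressor of RNA polymerase III, fell by 0.49 ± 0.11, the S6 kinase gene Rps6kb1 by 0.34 ± 0.09 and Larp1, the TOP-binding protein, by 0.54 ± 0.14 (Larp1 was picked out after its value was seen). At 50 µM against 2i, Rps6ka1 was called higher and Pdcd4, Deptor and Larp4 lower, the largest being Pdcd4, a translation inhibitor, at −1.04 ± 0.14 (0 to 1 higher and 2 to 3 lower without any single library; these 4 were named after their values were seen). These are 4.55% and 13.6% of the list, beside 7.01% and 8.07% of all genes.

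Of 15 transcription regulators linked to ribosomal protein promoters, 3 rose and 4 fell in 2i (0 to 3 and 3 to 4 without any single library). These shares of 20% and 26.7% lie near the 20% and 20.4% of all genes. Myc, which drives ribosome production in many cells, fell by 3.90 ± 0.42, Mycn by 1.50 ± 0.15 and Tbp by 0.48 ± 0.12. The part of these regulators in the ribosomal protein values was not tested. Of 77 mitochondrial ribosomal protein genes tested, which serve a separate ribosome, 26 fell and 5 rose in 2i (17 to 26 falls without any single library), with a median of −0.17. These are 33.8% and 6.49% of them, where 20.4% of all genes fell and 20% rose. Mrpl12 and Mrps17 each fell by 0.59 (SE 0.08 and 0.09), and Mrps2 rose by 0.48 ± 0.08. At 50 µM the median of these 77 genes was 0.07, with 3 called higher and 1 lower (1 to 5 higher without any single library). These are 3.9% and 1.3% of them, below the 7.01% and 8.07% of all genes. With the replicate block 10 were called higher and 2 lower, where 12.1% and 12.4% of all genes were. Of 19 genes of ribosome rescue and quality control tested, 1 rose and 2 fell in 2i (0 to 2 and 1 to 2 without any single library, 2 and 3 with the block). These are 5.26% and 10.5% of the list, below the 20% and 20.4% of all genes (23.5% and 24% with the block). Hbs1l, which frees stalled ribosomes, fell by 0.80 ± 0.10.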

How the data were processed

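RNA of 12 libraries was read with QuantSeq 3′ mRNA-Seq V2 (FWD), in which oligo-dT priming yields reads from transcript 3′ ends, per the labels' protocols. The values used were the whole-number counts per gene that the authors deposited, 1 table per library. FastQC, STAR, DESeq2 1.32.0 and the builds GRCm38 and mm10 appear in the submitters' processing notes. Not given in the sources used here were the counting tool, annotation release, strand setting, use of molecular identifiers and treatment of reads that map to several places. A table of the whole series was not used, and 114 spike-in features (2 counts in all) were left out. Symbols, gene types and positions came from GENCODE vM21 on GRCm38, and matched 52073 of 56691 IDs, which hold 98.4% of counts.

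Tests used edgeR 4.0.16 in R 4.3.3 with TMM scaling, filterByExpr, a robust quasi-likelihood fit on all 12 libraries and Benjamini-Hochberg adjustment over 13230 genes, called below 0.05. The script was tested on simulated data. The SE is the size of the log2 fold change over the square root of F. CPM are TMM-scaled. Depth was 5894561 to 7060126 counts per library, and counting error is covered by these tests. Chi-square per degree of freedom between replicates was 2.48 to 11.7, so no library was taken as a duplicate. Replicate numbers were checked as pairs: deviations from group means of same-numbered libraries correlated above 0.1 for all 3 pairs of each comparison (0.159 to 0.37 for 2i and primed, 0.292 to 0.497 for 25 µM and 2i, 0.197 to 0.392 for 50 µM and 2i, 0.223 to 0.466 for 50 and 25 µM), so counts with a replicate block are given beside those they move by 1.5 times or more. Alternatives were DESeq2 1.42.0, limma 3.58.1 (voom), library totals, TMM without these genes, no low-count filter beyond 1 count, only the groups compared, the block, named pseudogene counts added, and each library left out.

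The 75 genes and the other lists were chosen with earlier results of these data known. Genes named in full were the 6 largest called changes each way in 2i, the 4 highest and 4 lowest changes per inhibitor comparison, the 6 highest and lowest levels (mean log2 CPM of at least 3 for changes), 19 genes of known roles, and up to 4 called genes per other list by smallest p. Some genes are not reported here. Other names complete a count or were picked after their values were seen.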

Additional observations from a re-analysis of the deposited data

How the results depend on the processing

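The median change of the ribosomal protein genes kept its sign in all 4 comparisons under every alternative that was run. The share of them called lower in 2i changed sides of the background. It was 13.5% against 20.4% of all genes without the replicate block, and 40.5% against 24% with it. With the replicate block the genes called lower in 2i numbered 30 and those called higher 15 at 25 µM, 52 at 50 µM and 1 for 50 against 25 µM. With library totals in place of TMM 5 were lower in 2i and 14 higher at 50 µM against 2i. At 25 µM against 2i, 1 gene was called by DESeq2 and 1 without the low-count filter. Over the fits without 1 library, counts ran from 2 to 12 lower and 0 to 1 higher in 2i, from 0 to 1 higher at 25 µM and from 6 to 36 higher at 50 µM against 2i. Medians ran from −0.16 to −0.12, 0.12 to 0.19, 0.14 to 0.31 and, for 50 against 25 µM, 0.001 to 0.15. Fewer libraries per group also mean fewer degrees of freedom, and no other cause was tested. Counts of the other gene lists that the block moved by 1.5 times or more are given beside them. The SE of the log2 changes had a median of 0.10. Levels of genes with near-identical pseudogenes are uncertain.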
